A study of Mus musculus with 8 samples.

Results

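The 250 hippocampal regions described here had the highest mean read level in a 5-hydroxymethylcytosine (5hmC) pull-down, not scaled by region width. They were chosen among regions that the ventricular region list of the same study does not touch. They were taken from 21990 regions called in mouse hippocampus. Regions on chromosomes X and Y and regions sharing at least 1 bp with any of the 11664 ventricular regions were set aside, which left 20380 candidates. Counts were scaled to counts per 1000000 reads in a pool's regions (CPM), and the 250 candidates with the highest mean CPM over the 4 hippocampal pools were kept. A limit of 20 times the median region (744.3 CPM) removed none, because all 12 regions above it overlapped a ventricular region.

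The data are 5hmC DIP-seq, in which an antibody pulls down genomic DNA fragments carrying 5hmC before sequencing. Hippocampus and left ventricle, a chamber of the heart, came from C57BL/6 mice. The tissues were sampled 20 weeks after exposure to 1 Gy of protons or after a sham exposure (0 Gy). Each of the 4 combinations of tissue and dose had 2 pools of DNA from several mice, 5 mice per treatment group by the labels, and the labels do not say how the mice were divided over the pools. The sexes and ages of the mice are not stated either, and the spread between 2 pools is the only error that can be stated. The sample titles number the 2 pools of each group as biological replicates. They are called sham pools 1 and 2 and irradiated pools 1 and 2 here.

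5hmC is formed from 5-methylcytosine by the TET dioxygenases. It is an intermediate of active demethylation and also a lasting mark, and it is more abundant in brain, above all in neurons, than in most other tissues. In neurons it lies mainly in the bodies of transcribed genes and at enhancers. The hippocampus, a centre of memory formation, is among the brain areas studied for late effects of radiation. Positions below are in build mm9, the build named in the submitters' processing notes. Genes and base sequences at these positions are not given, since no annotation or genome of that build was used here.

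The number of reads within the called regions differed strongly between the pools, and library depth itself is unknown. The hippocampal regions held 266361 reads in sham pool 1, 110699 in sham pool 2, 1912037 in irradiated pool 1 and 1628905 in irradiated pool 2. A single read was therefore worth 3.75 CPM in sham pool 1 and 9.03 CPM in sham pool 2, against 0.523 and 0.614 CPM in the irradiated pools. The sham pools also ranked the regions in opposite ways. Across all 21990 regions (regions are no replicates) the Spearman correlation of CPM was 0.719 for the irradiated pair and -0.528 for the sham pair. With irradiated pools 1 and 2 it was -0.33 and -0.336 for sham pool 1, against 0.33 and 0.338 for sham pool 2. Sham pool 1 thus ran against each other pool.

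The 250 regions stood far above the typical region in 3 pools and below it in the fourth. In sham pool 2 their median was 154 CPM (lowest 9.03, highest 1734), 5.67 times the median of all regions, 27.1 CPM. In irradiated pool 1 it was 81.6 CPM (28.8 to 285) against 34.0 CPM, a ratio of 2.40. In irradiated pool 2 it was 81.6 CPM (35.0 to 300.2) against 35.6 CPM, a ratio of 2.29. In sham pool 1 the median was 26.3 CPM (0 to 255) against 45.1 CPM, a ratio of 0.583.

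Above the median of all regions lay 249 of the 250 in sham pool 2, 245 in irradiated pool 1 and 249 in irradiated pool 2, but 68 in sham pool 1. The regions above it in all 4 pools numbered 64, and another 179 were above it in every pool but sham pool 1. The mean level chose these regions, so these values describe the choice and were not tested. In sham pool 1, 37 of the 250 held no read, where a count of 0 allows up to 3 reads or 11.3 CPM. None was at 0 in the other 3 pools.

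**Figure D1:**
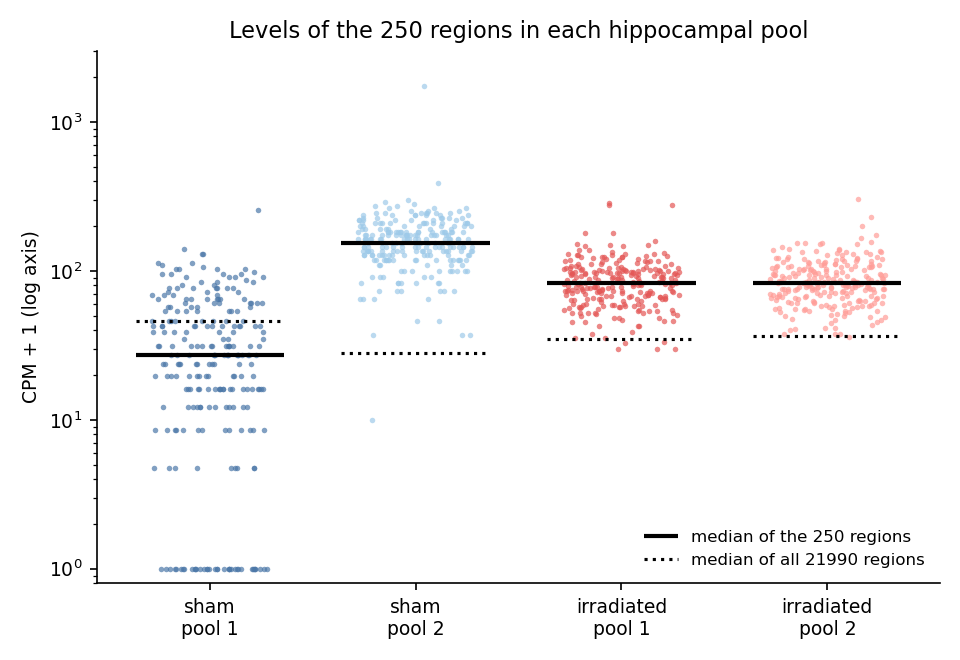
CPM + 1 on a log axis for each of the 250 regions (points) in the 4 hippocampal pools, with the median of the 250 (solid line) and of all 21990 regions (dotted line). The solid line lies above the dotted one in sham pool 2 and both irradiated pools and below it in sham pool 1, where 37 points sit at 0 CPM.

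Together the 250 regions took 0.871% of the reads of sham pool 1 (95% exact binomial interval 0.836 to 0.907) and 4.12% of sham pool 2 (4.004 to 4.24). They took 2.15% of irradiated pool 1 (2.13 to 2.17) and 2.18% of irradiated pool 2 (2.16 to 2.20). The intervals cover counting error at most, as they treat each read as an independent molecule. Reads that carry no molecular identifier cannot be taken for that, so even this error may be understated. The irradiated pools were nearly equal, and the sham pools lay on either side of them. The group means were 2.50% ± 2.30 in sham and 2.16% ± 0.0250 in irradiated pools (SD, n = 2 pools each). The 250 regions made up 1.77% of the total region length, so per base they were below the average of all regions in sham pool 1 (0.492 times) and above it in sham pool 2 (2.33 times) and the irradiated pools (1.21 and 1.23 times).

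The pool with the fewest reads in regions contributed most to the means. Sham pool 2 was the highest of the 4 pools in 206 of the 250 regions, against 29.7% of all hippocampal regions. Irradiated pool 2 was highest in 20, irradiated pool 1 in 15 and sham pool 1 in 9. Over all hippocampal regions these pools were highest in 11.9%, 10.6% and 47.8%, in the same order. In 85 regions a single pool supplied over 50% of the summed CPM, and in 83 of these it was sham pool 2. The 20 and 15 regions highest in an irradiated pool were wider, with medians of 5032.5 and 4800 bp, than the 206 highest in sham pool 2 (4061 bp).

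The irradiated pools agreed on the level of single regions far more closely than the sham pools did. The ratio of irradiated pool 2 to pool 1 had a median of 1.03 (0.289 to 1.98), and 247 of the 250 regions lay within 2-fold. The ratio of sham pool 2 to sham pool 1 had a median of 4.81 (0.0354 to 62.6) over the 213 regions with a read in sham pool 1. Of those, 40 lay within 2-fold. The sham ratios rest on far fewer reads, with medians of 7 and 17 per region in sham pools 1 and 2. The irradiated pools had medians of 156 and 133, and the part of counting error in these ratios was not tested. Across the 250 regions the Spearman correlation was 0.703 for the irradiated pair and -0.443 for the sham pair. Sham pool 2 had coefficients of -0.464 and -0.471 with irradiated pools 1 and 2 within the 250, but of 0.330 and 0.338 over all regions. Those of sham pool 1 were 0.0218 and -0.0588 within the 250, against -0.33 and -0.336 over all regions. A region high in one pool needs less in the others to enter a list chosen by the mean, so the sign within the list is partly set by the choice.

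The levels fell off steeply from the top of the list. Exactly 3 regions exceeded 150 CPM, 40 exceeded 100 CPM, and the median was 87.5 CPM. The strongest, chr2:116798985-116801528 (2544 bp), averaged 546 CPM. It held 25 and 192 reads in sham pools 1 and 2 and 528 and 130 in irradiated pools 1 and 2, or 93.9, 1734, 276 and 79.8 CPM. Sham pool 2 supplied 79.4% of its summed CPM, the largest share of 1 pool in the list. It was also the one region in which irradiated pool 1 exceeded irradiated pool 2 by more than 3-fold.

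The second, chr10:9478178-9481803 (3626 bp), held 27 and 43 reads in the sham pools, against 545 and 374 in the irradiated pools. These were 101 and 388 CPM against 285 and 230 CPM, so it was well above the typical region in every pool. The third, chr3:56378450-56380993 (2544 bp), held 17 and 19 against 526 and 489 reads, or 63.8 and 172 against 275 and 300.2 CPM. Both irradiated pools exceeded both sham pools there. This region also stood alone, 142 kb from the next hippocampal region and 460 kb from the nearest ventricular one.

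The next 7 were 5405 to 7241 bp wide and, with one exception, had the same profile: very low in sham pool 1, highest in sham pool 2, intermediate and alike in the irradiated pools. On chr4:44995953-45003193 the reads were 4 and 30 in the sham pools, against 281 and 247 in the irradiated pools. On chr4:140049747-140056887 they were 3 and 33 against 221 and 176, and on chr18:12382712-12389809 they were 2 and 22 against 301 and 267. On chr5:114878351-114883774 they were 0 and 30 against 210 and 197. Sham pool 2 thus stood at 199 to 298 CPM in these 4, and sham pool 1 at 0 to 15.0 CPM.

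Of the remaining 3 of the leading 10, a pair had this profile as well. On chr4:57739505-57746543 the reads were 7 and 24 in the sham pools, against 224 and 227 in the irradiated pools, and on chr7:17604144-17609548 they were 6 and 24 against 211 and 218. The exception to the common profile was chr2:166427711-166434731, with 19 and 10 against 287 and 323 reads. Its sham pools were close at 71.3 and 90.3 CPM, and its irradiated pools were higher at 150.1 and 198 CPM.

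**Figure D2:**
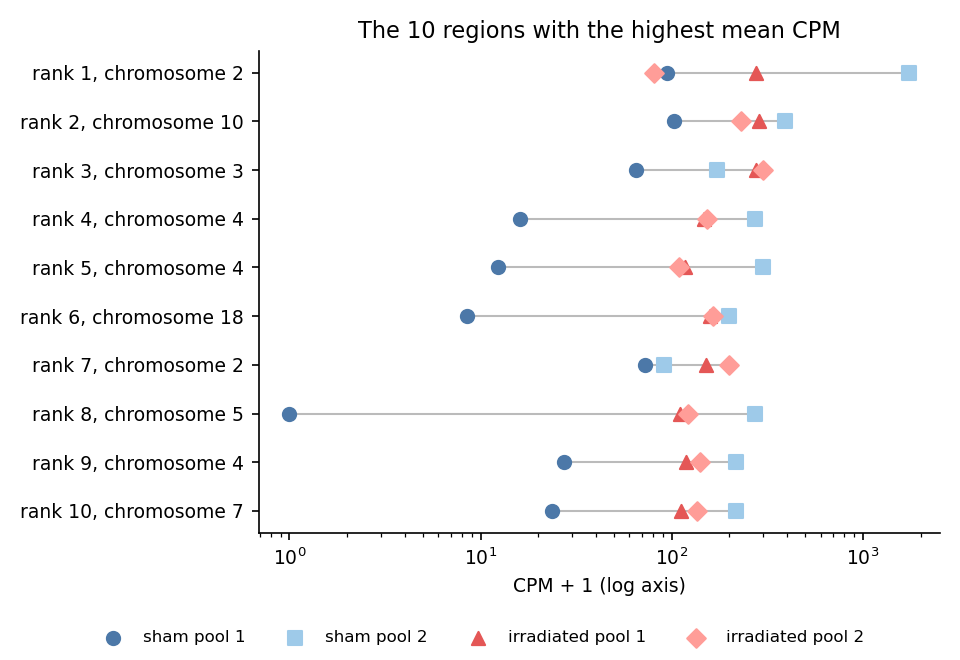
CPM + 1 on a log axis in each of the 4 pools (symbols) for the 10 regions with the highest mean CPM, ordered by rank from the top; grey lines span the lowest to the highest pool. Sham pool 1 is the lowest pool in 9 of the 10 regions and sham pool 2 the highest in 8.

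At the lower end the list had no natural edge. The last region kept, chr6:117861076-117863619, averaged 78.95 CPM from 20 and 18 reads in the sham pools, against 66 and 71 in the irradiated pools. The first left out, chr15:88074949-88079044, averaged 78.93 CPM from 8 and 10 against 174 and 170 reads. The region left out thus held more reads in each irradiated pool and fewer in each sham pool than the region kept. A single read in sham pool 2 moves a mean by 2.26 CPM, and 43 regions inside and 49 outside lay within that distance of the limit. At the upper end the strongest region, at 546 CPM, lay below the limit of 744.3 CPM and nothing was dropped.

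Some regions were even across all pools. The CPM of 22 regions stayed within 2-fold over the 4 pools and that of 54 within 3-fold. The most even was chr1:39506730-39511259 (4530 bp), with 27 and 11 reads in the sham pools, against 169 and 145 in the irradiated pools, or 101, 99.4, 88.4 and 89.0 CPM. On chr2:30984331-30986874 (2544 bp) the levels were 82.6, 90.3, 85.2 and 69.99 CPM in the same order. On chr8:81894289-81897656 (3368 bp) they were 128, 126, 92.0 and 118 CPM. In these 3 regions the sham pools, with few reads, and the irradiated pools, with many, gave the same level to within 1.39-fold.

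At the other extreme, after the strongest region, stood chr6:92830615-92833158 and chr11:90481824-90484485. The first held 0 and 27 reads in the sham pools, against 90 and 60 in the irradiated pools, and the second 0 and 29 against 107 and 57. Sham pool 2 supplied 74.4% and 74.2% of their summed CPM. Both were at 0 in the other sham pool.

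To read the level in a pool not used for the ranking, the rule was applied to 3 pools. The resulting 250 regions were then looked up in the pool left out. Whether that pool had a part in making the merged region list is not stated. Those chosen without irradiated pool 1 had a median of 64.3 CPM there, against 33.5 CPM in the remaining candidates, and 215 lay above the candidate median. Those chosen without irradiated pool 2 had 66.6 against 35.0 CPM in that pool, with 224 above. Those chosen without sham pool 2 had 63.2 against 27.1 CPM in it, with 181 above. In each of these 3 pools the level was 1.90 to 2.33 times that of the other candidates.

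Sham pool 1 gave the opposite. The 250 regions chosen without it had a median of 15.0 CPM in it against 45.1 CPM in the remaining candidates, 0.333 times, with 28 above the candidate median, 218 below it and 80 at 0. The high level of these regions was therefore seen in 3 pools and not in sham pool 1. Per kb of region the order was the same, at 15.7 against 10.6 CPM per kb in sham pool 2, 17.4 against 12.7 and 18.4 against 13.3 in irradiated pools 1 and 2, and 2.97 against 17.7 in sham pool 1. Membership moved with the pools used, and 196, 108, 190 and 193 of the 250 stayed when sham pool 1, sham pool 2, irradiated pool 1 and irradiated pool 2 were left out.

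The 250 regions were wide. Their median width was 4133.5 bp (2544 to 7623), against 2544 bp in the other 20130 candidates. Exactly 2544 bp, the width of 78.3% of all hippocampal regions, was the width of 28 of them (11.2%). Of candidates at 2544 bp, 0.174% were among the 250. The share was 1.95% (60 of 3079) at 2545 to 3499 bp, 12.3% (104 of 843) at 3500 to 4999 bp and 56.9% (58 of 102) at 5000 bp and over. None of the 247 narrower candidates was included. The choice on CPM, which is not scaled by width, was not separated from width, and no test was made.

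Per kb, the mean over the 4 pools had a median of 21.5 CPM in the 250 regions against 14.1 in the other candidates. At a fixed width the choice on mean CPM sets this direction, and per base the 250 lay below the average of all regions in sham pool 1, as given above. The 28 at 2544 bp reached 32.7 CPM per kb, against 13.6 for all candidates of that width. The 58 at 5000 bp and over reached 16.6 CPM per kb against 14.9, so the widest regions were close to typical per base. The widest, chr6:136067350-136074972 (7623 bp), held 5 and 18 reads in the sham pools, against 183 and 233 in the irradiated pools.

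The level varied with width in different ways in the 4 pools. From the 2544 bp class to the class at 5000 bp and over, the median CPM of the chosen regions went from 53.3 to 101 in irradiated pool 1 and from 54.9 to 108 in irradiated pool 2. In sham pool 2 it went from 167 to 145 CPM and in sham pool 1 from 54.4 to 22.5 CPM. Across the 250 the Spearman correlation of CPM with width was 0.485 and 0.603 in the irradiated pools, -0.0953 in sham pool 1 and -0.222 in sham pool 2. Over all 21990 regions it was 0.423 and 0.430 in the irradiated pools, 0.358 in sham pool 2 and -0.344 in sham pool 1. The correlation was thus negative in sham pool 1 alone over all regions, and in both sham pools within the 250.

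**Figure D3:**
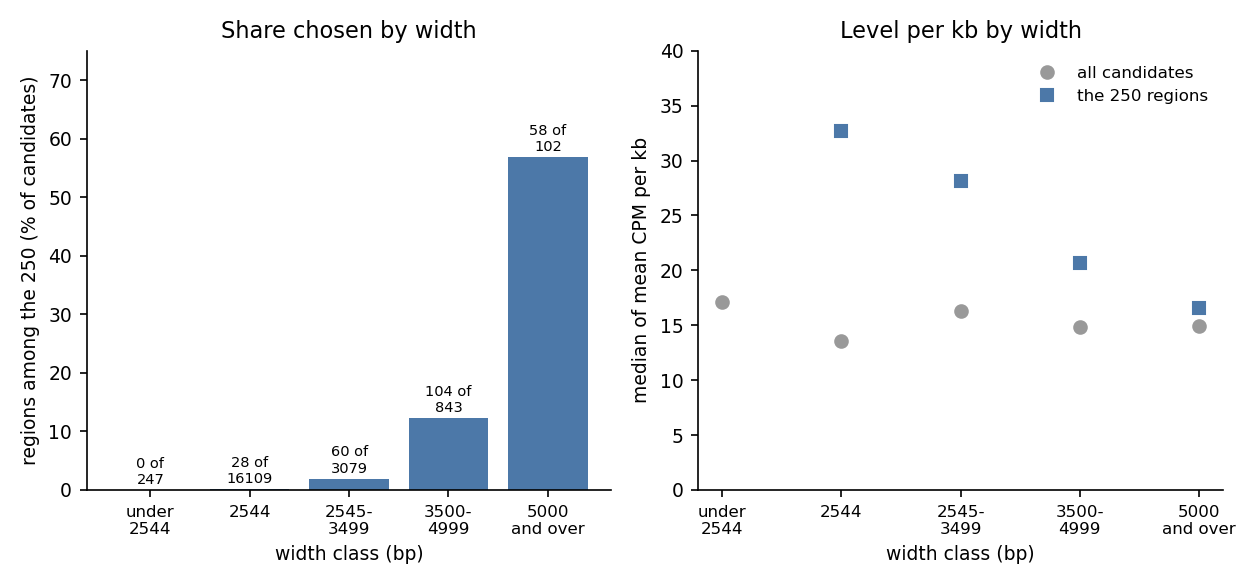
Left, share of candidates in each width class (bp) that are among the 250 regions, with the counts above each bar; right, median of the mean CPM per kb in the same classes for all candidates (circles) and for the 250 (squares). The share chosen goes from 0.174% at 2544 bp to 56.9% at 5000 bp and over, while the level per kb of the chosen regions goes from 32.7 to 16.6.

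The 250 regions lay on all 19 autosomes. Chromosome 4 carried the most, 27 regions or 19.4 per 1000 candidates, against 12.3 over all autosomes. Chromosomes 12 (18.1 per 1000), 9 (16.5) and 10 (16.3) followed. Chromosomes 3 (4.596 per 1000) and 19 (5.15) carried the fewest, with 5 and 3 regions. Wide candidates, those over 2544 bp, were 21.6% of candidates on chromosome 4 and 15.3% on chromosome 3. Of these wide candidates, 8.67% were chosen on chromosome 4 and 2.41% on chromosome 3. When the candidates of each chromosome were put in order of position and cut into 5 equal parts, the last part, at the high-coordinate end, held 73 of the 250 regions and the 4 others held 40 to 47 each.

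The regions lay in dense stretches of the hippocampal list. The median distance to the next hippocampal region was 12.3 kb, against 25.04 kb for the other candidates. Within 500 kb to each side lay a median of 17 hippocampal regions, against 12. Dense surroundings were not particular to the 250. In 97 equally strong autosomal regions that overlap a ventricular region, described below, the 2 medians were 15.9 kb and 16 regions. Another of the 250 regions lay within 1 Mb of 93 of them and within 100 kb of 28. Chained at 1 Mb, these formed 28 pairs, 8 groups of 3, 2 groups of 4 and 1 group of 5.

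The largest of these groups spanned 3140 kb of chromosome 15 (96191564 to 99331667). A tighter one put 4 regions within 132 kb of chromosome 14 (69955789 to 70088012), where the hippocampal list has 11. Summed over these 4, the reads were 33 and 45 in the sham pools, against 919 and 857 in the irradiated pools. Scaled for the pool totals the gap was far smaller, with medians of 33.8 and 94.9 against 121.6 and 128.3 CPM. Its leading region, chr14:69962065-69965845, held 15 and 16 against 282 and 217 reads. These were 56.3 and 145 against 147 and 133 CPM, so the groups overlapped there. They also overlapped in chr14:69955789-69958531, at 0 and 108 against 96.8 and 118 CPM. Another, chr14:69984584-69988504, held 7 and 8 against 280 and 246, and in CPM each irradiated pool exceeded each sham pool there and in chr14:70085254-70088012.

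The closest pair lay 1683 bp apart on chromosome 2. Its left region, chr2:160566727-160570503, held 24 and 14 reads in the sham pools, against 196 and 134 in the irradiated pools, or 90.1 and 126 against 103 and 82.3 CPM. Its right region, chr2:160572187-160577405, held 7 and 7 against 260 and 196 reads, or 26.3 and 63.2 against 136 and 120 CPM. The sham and irradiated pools overlapped in the left region and not in the right one.

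The 250 regions lay close to regions of the ventricular list. The nearest ventricular region lay a median of 22.3 kb away, against 49.7 kb for the other candidates. Within 10 kb lay a ventricular region for 78 of the 250 (31.2%), against 15.7% of the other candidates, and within 100 kb for 217 (86.8%) against 69.8%. The 250 regions also lay in denser parts of the hippocampal list, and the part of that density in these distances was not tested. Reads of the ventricular pools are deposited for the ventricular regions, so the ventricular level at the 250 positions themselves was not analysed here.

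The ventricular regions near them had a somewhat higher mean level than others, but not in each pool. The 77 ventricular regions nearest to the 78 had a median of 77.4 CPM over the ventricular pools, against 66.1 CPM for the 2778 next to other candidates within 10 kb and 64.1 CPM for all 11664. Reads in all 4 ventricular pools were found in 32.5% of the 77, against 16.7% and 14.8%. The ventricular pools held few reads in their regions, with totals of 81794 and 49649 in the sham pools, against 86857 and 111035 in the irradiated pools. The 77 neighbours had medians of 4 and 1 reads in the sham pools, against 6 and 5 in the irradiated pools. The neighbours of other candidates had 3 and 0 against 7 and 5, and all ventricular regions 2 and 0 against 8 and 4. In irradiated pool 1 the 77 thus had the lowest median, 69.1 CPM against 80.6 and 92.1 CPM.

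The 2 regions closest to a ventricular one show how thin that separation can be. The region chr14:77203728-77206371 lay 471 bp from the ventricular region chr14:77200713-77203256. It held 14 and 23 reads in the sham pools, against 85 and 65 in the irradiated hippocampal pools, and its ventricular neighbour held 6 and 0 against 17 and 0. The region chr15:27840171-27844131 lay 536 bp from chr15:27837091-27839634. It held 4 and 15 against 187 and 144 reads in hippocampus, and the neighbour 0 and 18 against 1 and 33 in ventricle.

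**Figure D4:**
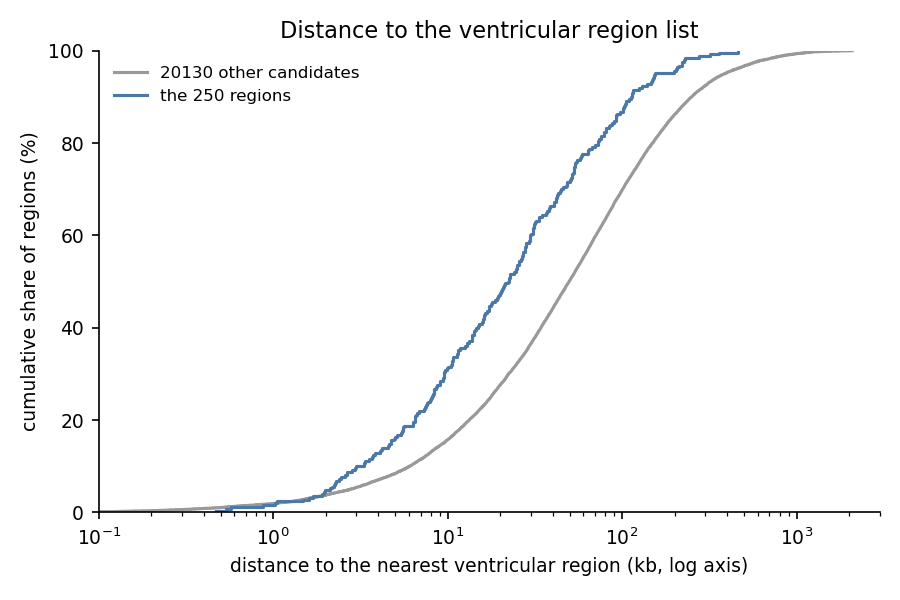
Cumulative share of regions (%) against the distance to the nearest ventricular region (kb, log axis) for the 250 regions and the 20130 other candidates. The curve of the 250 lies to the left, with 31.2% against 15.7% of regions within 10 kb.

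Autosomal regions as strong as these overlapped the ventricular list more often than weaker ones. Of 357 autosomal regions at or above the level of the last one kept, 107 (30.0%) overlapped a ventricular region, against 6.12% of all autosomal hippocampal regions. Leaving out those above the high-count limit, 97 equally strong shared regions remained. Their median width was 3186 bp and their level 29.8 CPM per kb, against 4133.5 bp and 21.5 CPM per kb in the 250. Their median CPM was 33.8 and 145 in sham pools 1 and 2 and 121 and 117 in irradiated pools 1 and 2. Sham pool 2 was the highest pool in 40.2% of them, against 82.4% of the 250. Both sets were chosen on mean CPM with the same limits, and the differences between them were not tested.

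None of the 250 regions was called different between 1 Gy and 0 Gy with all 4 pools. All 250 passed the filter on low counts, and edgeR's quasi-likelihood test on the whole hippocampal table called 0 of them at 0.05, after Benjamini-Hochberg adjustment to a false discovery rate (FDR). Over all 21498 tested regions the called share was 0%. At an unadjusted p under 0.05 there was 1 of the 250 (0.4%), against 1.04% of all tested regions. DESeq2 called 0 of the 250 at an FDR of 0.05, and 1 region in all (0.00455%). At an unadjusted p under 0.05 it had 2 of the 250, against 3.68% of all regions. In pools thinned to 110699 reads each, an alternative added after the data were seen, 121 of the 250 were tested and 0 called, against 0.429% of tested regions.

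The median log2 fold change of the 250 was 0.13 (-2.07 to 2.45), against 0.11 over all tested regions, and the median standard error of a single region was 1.11. With trimmed-mean (TMM) scaling 139 of the 250 (55.6%) lay above 0, as did 55.4% of all tested regions. The sign of this median changed with the scaling. It was -0.19 with total counts, where all tested regions had -0.27, and -0.14 with DESeq2-type size factors, where they had -0.15. Relative to all tested regions the median of the 250 differed by 0.03 under TMM, by -0.08 after loess offsets and by 0.08 after scaling to totals. The difference was larger with the replicate number as a block, at 0.43 (0.88 against 0.45), and in thinned pools, at -0.30 over the 121 regions tested there (-0.14 against 0.16).

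In CPM, each irradiated pool exceeded each sham pool in 23 of the 250 regions (9.2%), against 12.2% of all hippocampal regions, and lay below each in 24 (9.6%), against 14.3%. With TMM scaling the counts were 42 above (16.8%), against 22.6% of tested regions, and 7 below (2.8%), against 8.46%. In most of the 250 the irradiated pools thus lay between the sham pools or overlapped them, and under neither scaling did the 250 exceed the background.

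Among the 250, the 3 smallest p values for an increase at 1 Gy belonged to regions with few sham reads. On chr10:80640745-80645603 (4859 bp) the reads were 5 and 5 in the sham pools, against 242 and 226 in the irradiated pools, or 32.0 CPM ± 18.7 against 133 CPM ± 8.61 (SD, n = 2 pools each). The groups did not overlap, and edgeR gave a log2 fold change of 2.43 (SE 1.02) with an unadjusted p of 0.0443 and an FDR of 1.00. On chr9:13421278-13423821 (2544 bp) the reads were 4 and 7 against 342 and 243, and the log2 fold change was 2.45 (SE 1.08). On chr16:10974211-10976756 (2546 bp) they were 14 and 5 against 246 and 283, with a log2 fold change of 1.97 (SE 0.91). All 3 kept a positive sign, at 1.14 to 2.21, with loess offsets.

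For a decrease, the smallest p belonged to chr14:32817475-32820033 (2559 bp). It held 29 and 22 reads in the sham pools, against 55 and 60 in the irradiated pools, or 154 CPM ± 63.5 against 32.8 CPM ± 5.71 (SD, n = 2 pools each). The irradiated pools lay below both sham pools, and edgeR gave a log2 fold change of -1.90 (SE 0.96) with an unadjusted p of 0.0828 and an FDR of 1.00. The strongest region of the list, on chromosome 2, came next at -2.07 (SE 1.36). Its direction rested on sham pool 2, since without that pool the log2 fold change was 1.41. The third, chr7:144640562-144643105 (2544 bp), held 18 and 21 against 55 and 72 reads, with a log2 fold change of -1.49 (SE 1.02) and of -0.43 without sham pool 2.

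The direction of the dose comparison differed with the sham pool used as control. With 1 sham pool left, the fit took its spread from the irradiated pair alone and assumed that the lone sham pool varies like it. The disagreement of the sham pools is then not in the error, and the calls that follow describe the direction against each sham pool, not a tested effect of dose. Without sham pool 1, edgeR called 72 of the 250 regions (28.8%) at an FDR of 0.05, 67 of them lower and 5 higher. All tested regions gave 5.32% lower and 10.1% higher. Without sham pool 2 it called 181 of the 250 (72.4%), 179 of them higher and 2 lower, against 15.4% higher and 5.23% lower among all tested regions. The lists shared 4 regions called higher and 1 called lower. Sham pool 2 is the pool that did most to choose these regions, and these calls are no independent support for a change in either direction.

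The median log2 fold change of the 250 moved from -0.63 without sham pool 1 to 2.31 without sham pool 2, while that of all tested regions was 0.71 and 0.11. In the second case 37 of the 179 regions called higher stood at 0 in the one remaining sham pool, so their fitted folds have no set size. With regions at 0 put at the floor of 3 reads and pools scaled by total counts, the medians were 1.84 for the 250 and -0.36 for all regions. On the same scale they were -0.87 and -0.08 without sham pool 1. Without irradiated pool 1 or irradiated pool 2, where the spread came from the sham pair, no region was called, and the medians were 0.20 and 0.18.

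**Figure D5:**
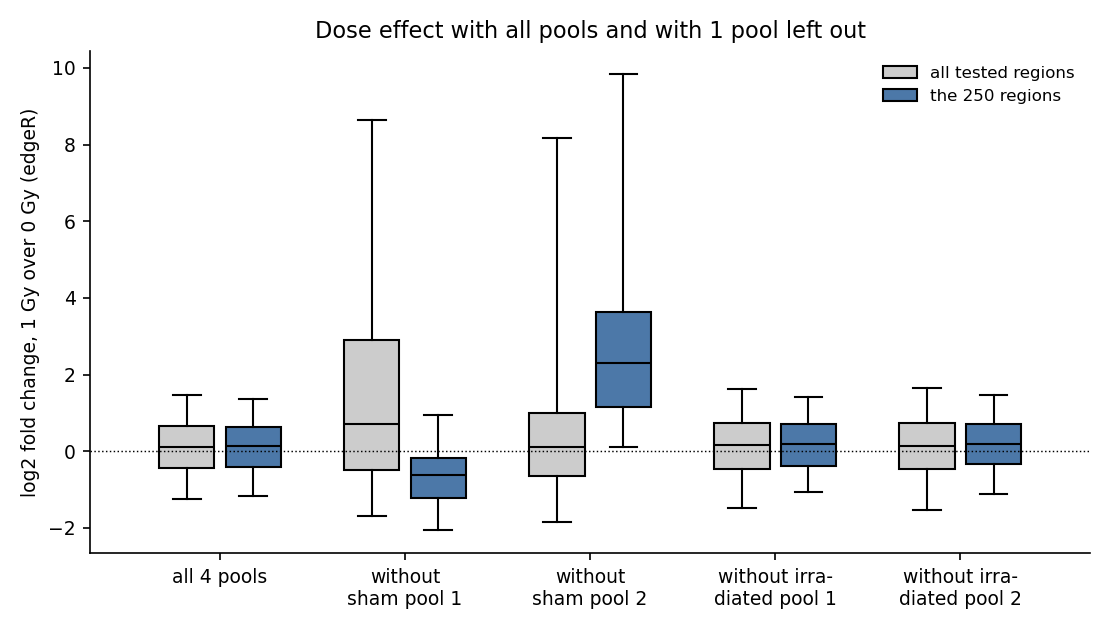
Log2 fold change of 1 Gy over 0 Gy from edgeR for all tested regions (grey) and the 250 regions (blue), with all 4 pools and with each pool left out; boxes show the quartiles and median, whiskers the 5th and 95th percentiles. The median of the 250 is 0.13 with all pools, -0.63 without sham pool 1 and 2.31 without sham pool 2.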

How the data were processed

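The authors deposited raw counts of reads for each region, with 1 list of merged peaks per tissue. Per the submitters' processing notes the tools were CASAVA 1.8.2, Bowtie 1.0.0 and DESeq2 and the build mm9, without their roles. Neither the labels nor the files state the peak caller, how peaks were merged, how duplicates were handled or whether an input was used. Region totals are not library depths. Starts were raised by 1, as the files have a BED layout. Pools were grouped by their titles. Dose was tested with edgeR 4.0.16 (R 4.3.3, limma 3.58.1) on all hippocampal regions, with filterByExpr, TMM, a quasi-likelihood test and Benjamini-Hochberg adjustment, and DESeq2 1.42.0 as an alternative. The standard error (SE) given for an edgeR log2 fold change was worked back from the test. It is the absolute log2 fold change divided by the square root of the F value. The edgeR fit alone was tried on simulated counts. These had less spread than the data and, apart from planted changes, the same profile in all pools. That trial therefore cannot show how the fit performs on sham pools that disagree. The members, lists and tests were chosen with earlier results of these data known. Named regions are the 10 highest, those at the limits, the 3 smallest p per direction, the 3 most and 3 least even, the widest, the closest pair and the 2 nearest to a ventricular region. The clusters on chromosomes 14 and 15 were named after their values had been seen. Alternatives were other scalings, filters, thresholds, pools left out, a replicate block, other list rules and thinning to 110699 reads. The titles call the pools biological replicates but do not say that they came from separate mice. The p-values measure the spread between pools.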

Additional observations from a re-analysis of the deposited data

How the results depend on the processing

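The count of 0 among the 250 regions held under total counts, loess offsets, DESeq2-type size factors, no filter, a filter of 20 counts in 2 pools, an FDR of 0.1, thinning (121 of the 250 tested), DESeq2 and with either irradiated pool left out. With 1 pool left out it ranged from 0 to 181, and over all regions from 0 to 4533. Over all regions DESeq2 called 1 and thinned libraries, added after the data were seen, called 2. The median log2 fold change of the 250 was -0.095 with loess offsets, -0.13 in DESeq2, -0.14 with its size factors in edgeR and in thinned libraries and -0.19 with total counts, and from -0.63 to 2.31 with 1 pool left out. With the replicate number as a block edgeR called 0 regions and the median was 0.88, against 0.45 for all tested regions. The deviations of same-numbered pools correlated at -0.00532, which gives no sign of pairing, and the labels state none. Of the 250 regions, 108 to 196 stayed with 1 pool left out, 143 by the median over pools, 155 by the geometric mean, 134 by pooled counts and 69 by CPM per kb. Between 171 and 250 stayed under the other list rules, thinning included. A further limit is the number of reads in regions, as 1 read in sham pool 2 is 9.03 CPM.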
